A study of Mus musculus with 6 samples.

Results

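Mesenchymal identity transcription factors are the DNA-binding proteins that set and keep a cell in the connective tissue lineage. The 8 genes described here, Prrx1, Foxc1, Ebf1, Ebf3, Twist1, Twist2, Snai2 and Zeb1, were chosen by name out of 55401 genes listed in the deposited table, and all 8 were found. The study sequenced messenger RNA of mouse bone marrow stromal/stem cells in culture, in 3 WT libraries and 3 Nrf2 knockout libraries. Both were grown in DMEM with 10% fetal bovine serum, with no other treatment, age, sex or strain in the labels. The sources used here do not give how the Nrf2 allele was made, or how many animals or cultures each genotype came from. The knockout column names share a number whose meaning is not stated, so those libraries may be repeats of 1 source. Spread among the knockout libraries would then be technical alone. The p-values, which pool spread over both genotypes, would then not cover differences between knockout sources.

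PRRX1 is a paired-type homeodomain protein of limb and skeletal mesenchyme, and FOXC1 is a forkhead protein that maintains the reticular stromal cells of bone marrow. EBF1 and EBF3 share a DNA-binding domain and are also known in marrow stroma, EBF1 in B cells as well. TWIST1 and TWIST2 are basic helix-loop-helix proteins that bind E-box sequences as dimers with E proteins, while SNAI2 and ZEB1 are zinc finger repressors that bind E-boxes and silence epithelial genes. NRF2, encoded by Nfe2l2, is the factor that activates antioxidant genes.

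Library totals ran from 18381114 to 21323839 counts. Nfe2l2 stood at 173 ± 20.7 CPM (counts per 1000000 of a library size scaled by trimmed mean of M-values, TMM; SD, n = 3) in WT and at 6.33 ± 0.765 CPM (SD, n = 3) in knockout, so 6 of 6 libraries matched their genotype label. The WT libraries stood apart from each other. The summed RNA of 12 fibroblast markers was 2050 CPM in WT replicate 1, against 7630 and 10900 CPM in WT replicates 2 and 3. It ran from 42.1 to 95.2 CPM in knockout, 0.973% of WT by mean. Of the 12, 11 were tested and 11 fell, beside 18.7% called lower over all tested genes. Of these 11, 3 had enough counts in every WT library but not in every knockout library, and 83.7% of such genes were called lower. The other 8 had enough counts in all libraries, a class in which 14.0% were called lower. Lum, the marker left untested for its low counts, overlapped between genotypes, with mean CPM of 0.264 (WT) against 0.261 (knockout). Thy1, a surface antigen by which stromal cells are defined, had 0 counts in knockout replicate 1 and 1 in each of the other knockout libraries, and none of the remaining 11 markers was at 0. The summed RNA of 14 macrophage markers ran from 19400 to 25500 CPM in WT and from 21400 to 23500 CPM in knockout, with 5 of 14 called higher, 0 lower and 9 not called. Over all tested genes 14.1% were called higher. Most of that sum came from Lyz2, with a log2 fold change of -0.30 (edgeR adjusted p = 0.16), where the median of the 14 was 0.51. Every knockout library lay above every WT library for 8 of the 14, the reverse held for 1, and 5 overlapped. Over all tested genes, knockout libraries lay above for 24.9% and WT libraries for 25.9%. Endothelial markers, 10 in number, summed to 25.3 to 36.5 CPM in WT and 58.7 to 64.0 CPM in knockout, and most of that sum was Vwf. Of the 4 tested, Vwf and Kdr were called higher (log2 fold changes of 1.025 and 2.487) and 2 were not called, among them Cdh5 at -0.72. Without overlap, knockout libraries were higher for 3 of the 10 and lower for 1, Emcn, and 6 overlapped. Those counts stand beside the same 24.9% and 25.9% of all tested genes, and 6 of the 10 were not tested. The knockout mean of 8 summed smooth muscle markers was 0.583% of the WT mean. The part of cell makeup in the differences below was not tested. In bulk RNA, fewer cells of a type and less RNA per cell cannot be told apart.

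All 8 factors were low in knockout. The summed CPM of the 8 genes was 39.8, 125 and 190 in WT replicates 1, 2 and 3 and 2.68, 3.82 and 3.41 in knockout replicates 1, 2 and 3. The knockout mean was 2.79% of the WT mean. For 8 of 8 genes each WT library lay above each knockout library, which was so for 25.9% of all 13184 genes tested. Of those tested, 50.9% did not overlap in either direction. Twist2 was not among the genes tested. Of the 7 genes with enough counts for the test, 7 passed an edgeR adjusted p of 0.05 as lower and 0 as higher. Over all tested genes 32.9% were called, 18.7% as lower. That count of 7 is limited by the count filter: 5 of the 7 had enough counts in every WT library but not in every knockout library. Among 1012 such genes 83.7% were called lower. The same filter limits the 8 of 8 above, since the share of 25.9% is not matched to genes that passed through WT alone. Prrx1 and Zeb1 passed the filter in all 6 libraries, a class in which 14.0% of 11606 genes were called lower.

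**Figure D1:**
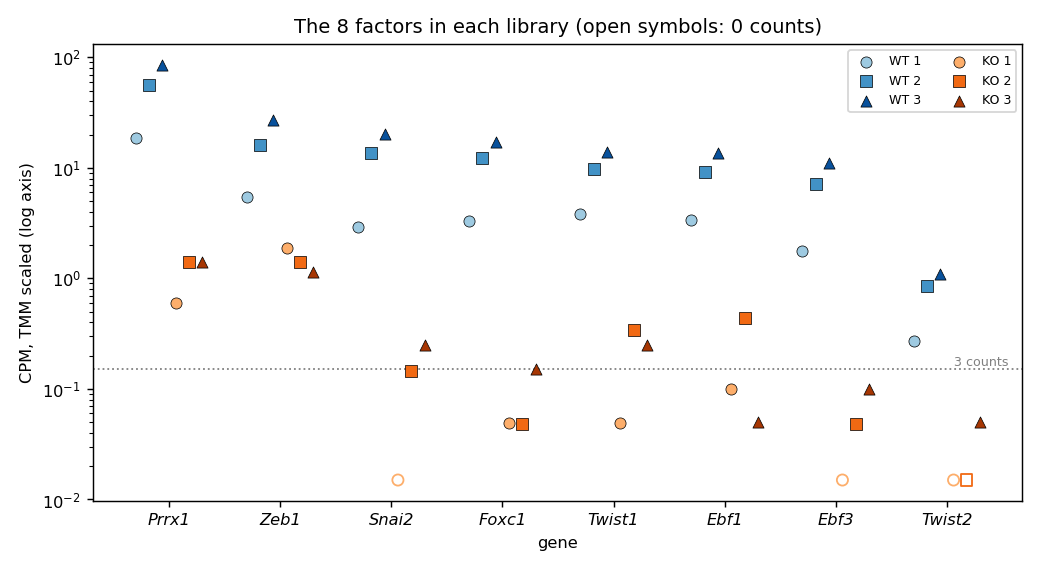
TMM-scaled CPM on a log axis for the 8 factors, with 1 symbol for each of the 3 WT (blue) and 3 Nrf2 knockout (orange, KO) libraries; open symbols at the lower edge mark 0 counts, and the dotted line marks the level of about 3 counts. The WT libraries lie above the knockout libraries for each gene, WT replicate 1 is the lowest WT library, and Prrx1 and Zeb1 are the genes with the most residual signal in knockout.

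Prrx1 was the most counted of the 8. The gene (ENSMUSG00000026586) spans 163245119 to 163313710 of chromosome 1 in mm10 and is read from the minus strand. It had 344, 1054 and 1960 counts in WT replicates 1, 2 and 3 and 12, 29 and 28 in knockout. WT replicate 3 held the most and knockout replicate 1 the least. Prrx1 fell from 53.5 ± 33.5 to 1.13 ± 0.467 CPM (SD, n = 3 each), a log2 fold change of -5.55 (SE 0.66; edgeR adjusted p = 0.0018). Its paralog Prrx2 was scarce, with 2, 12 and 17 counts in WT and 0 in each knockout library, at least 10.9-fold lower against a floor of 3 counts over the knockout group.

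Foxc1 (chromosome 13, 31806633 to 31812476, plus strand) had 60, 230 and 394 counts in WT and 1, 1 and 3 in knockout. The groups were far apart, but the knockout level was at or under the 3-count floor in each library. Foxc1 fell from 10.9 ± 7.07 to 0.0828 ± 0.0586 CPM, with a log2 fold change of -6.95 (SE 0.86; edgeR adjusted p = 0.0020). The ratio of WT to knockout counts per total was 144, with an exact 95% counting interval from 61.3 to 444. Foxc2, a forkhead paralog of vascular and skeletal mesenchyme, fell as well, from 8.67 ± 4.71 to 0.164 ± 0.149 CPM (log2 fold change -5.67; edgeR adjusted p = 0.0028). Without knockout replicate 3 the log2 fold change of Foxc1 was -7.62.

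Among the EBF genes, Ebf1 (chromosome 11, 44617317 to 45008091, plus strand) had 62, 172 and 311 counts in WT and 2, 9 and 1 in knockout. Knockout replicate 2 held most of the residual counts. Ebf1 fell by 5.43 on the log2 scale (SE 0.78; edgeR adjusted p = 0.0030), and the log2 fold change was -6.74 without knockout replicate 2. Ebf3 (chromosome 7, 137193673 to 137314445, minus strand) had 32, 136 and 251 counts in WT and 0, 1 and 2 in knockout. WT counts were 147 times knockout counts per total (95% counting interval 49.9 to 714). The fitted log2 fold change of Ebf3 was -6.91 (SE 1.00; edgeR adjusted p = 0.0032), and -7.76 without knockout replicate 3. Ebf2, a paralog known in fat cell precursors, had 11, 24 and 36 counts in WT and 0 in each knockout library, at least 24.9-fold lower against the floor. Markers of B cells, the other lineage that uses Ebf1, summed to 1.53 to 2.49 CPM in WT and 3.06 to 4.45 CPM in knockout. Most of that sum came from Cd79b, the 1 marker tested, with a log2 fold change of 0.86 (edgeR adjusted p = 0.057, not called). Every knockout library lay above every WT library for 2 of the 10 markers, Cd79b and Ms4a1, and the reverse held for 0. Over all tested genes these shares were 24.9% and 25.9%. The 9 markers other than Cd79b were under the count filter. Of those, Pax5 had 1 count in all 6 libraries together, and Igll1 had 0.

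Twist1 (chromosome 12, 33957671 to 33959829, plus strand) had 70, 186 and 321 counts in WT and 1, 7 and 5 in knockout. It fell from 9.25 ± 5.13 to 0.213 ± 0.148 CPM, with a log2 fold change of -5.40 (SE 0.69; edgeR adjusted p = 0.0021). Twist2 (chromosome 1, 91801461 to 91848028, plus strand) had 5, 16 and 25 counts in WT and 0, 0 and 1 in knockout, so it was under the count filter and not tested with the other 7. The ratio of its counts was 48.3, with a 95% counting interval from 8.25 to 1950. With all genes kept that had a count above 0, its log2 fold change was -5.04 (edgeR adjusted p = 0.0048).

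The E proteins with which TWIST factors pair did not share that size of change. Tcf12 fell by 0.50 on the log2 scale, from 82.4 ± 9.63 to 58.2 ± 4.69 CPM (edgeR adjusted p = 0.013). The levels of Tcf3 were 57.8 ± 11.3 CPM (WT) and 41.9 ± 3.82 CPM (knockout) (edgeR adjusted p = 0.055). Tcf4 stood at 42.1 ± 5.82 and 40.5 ± 1.66 CPM, with a log2 fold change of -0.05 (SE 0.11; edgeR adjusted p = 0.74).

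Snai2 (chromosome 16, 14705852 to 14709385, plus strand) had 53, 255 and 466 counts in WT and 0, 3 and 5 in knockout. It had the widest WT spread of the 8, with WT replicate 3 at 7.03 times the CPM of WT replicate 1. Snai2 fell by 6.48 on the log2 scale (SE 1.00; edgeR adjusted p = 0.0039), and the log2 fold change was -7.26 without knockout replicate 3. Snai1, the founding SNAI gene and a repressor of the same epithelial targets, was more abundant than Snai2 in each WT library, at 22.0 ± 13.3 against 12.3 ± 8.81 CPM. Per kilobase of exon the WT levels were 14.1 FPKM for Snai1 and 6.35 FPKM for Snai2. Snai1 fell to 0.279 ± 0.0969 CPM (log2 fold change -6.27; edgeR adjusted p = 0.0015).

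Zeb1 kept the most RNA in knockout. The gene spans 5591860 to 5775467 of chromosome 18, plus strand, and had 100, 303 and 620 counts in WT and 38, 29 and 23 in knockout. The gap between WT replicate 1 and knockout replicate 1 was, as a ratio, the narrowest between the closest libraries of any of the 8 genes, at 5.48 against 1.89 CPM. Zeb1 fell by 3.45 on the log2 scale (SE 0.59; edgeR adjusted p = 0.0057), from 16.2 ± 10.8 to 1.48 ± 0.372 CPM. The knockout mean was 9.13% of the WT mean, where the other 7 genes lay between 0.746% and 2.30%. Without WT replicate 3 the log2 fold change of Zeb1 was -2.86.

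The ratio of Zeb1 CPM to Prrx1 CPM was nearly level in WT, at 0.291, 0.287 and 0.316. In knockout it was 3.17, 1.00 and 0.821, above the WT values in each library. This pair was chosen after its values were seen, so the difference is given with no test. In knockout replicate 1, which had the lowest fibroblast marker sum, the other 7 factors also had their lowest sum, 0.794 CPM against 2.42 and 2.26 CPM. Zeb1 had its highest knockout value there.

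Zeb2, the paralog of Zeb1, is also expressed in macrophages. It had 4545, 3918 and 5130 counts in WT and 5186, 4586 and 5422 in knockout, with overlapping genotypes and a log2 fold change of 0.14 (SE 0.11; edgeR adjusted p = 0.36). Per kilobase of exon, Zeb2 stood at 11.4 FPKM and Zeb1 at 1.65 FPKM in WT, and at 12.2 and 0.140 FPKM in knockout. The log2 ratio of Zeb1 to Zeb2 CPM was -4.07 ± 1.26 in WT and -7.33 ± 0.39 in knockout (SD, n = 3 each), a difference of -3.26 with an exact two-sided permutation p of 0.1, the smallest that 3 against 3 libraries allow. The same test was run on 4 pairs, and its adjusted p was 0.2 for this one.

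For the other pairs, the log2 ratio of Twist1 to Twist2 differed by -2.14, knockout minus WT (exact permutation p = 0.1, adjusted 0.2). That difference depends on the offset added to counts near 0, since it was -1.17 with a prior count of 0.5 in place of 2. Ebf1 over Ebf3 differed by 0.29 (exact permutation p = 0.7) and Snai2 over Snai1 by 0.14 (exact permutation p = 1). The direction of both turned under some settings. With 3 libraries a genotype no pair could reach a p under 0.1, so this test could make no call, and the knockout ratios of Twist1, Twist2, Ebf1 and Ebf3 rest on 1 to 13 counts a gene. The transcripts of these pairs share no run of 50 bases, the longest shared run being 35 bases for Zeb1 and Zeb2 and 23 or 24 bases for the others.

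**Figure D2:**
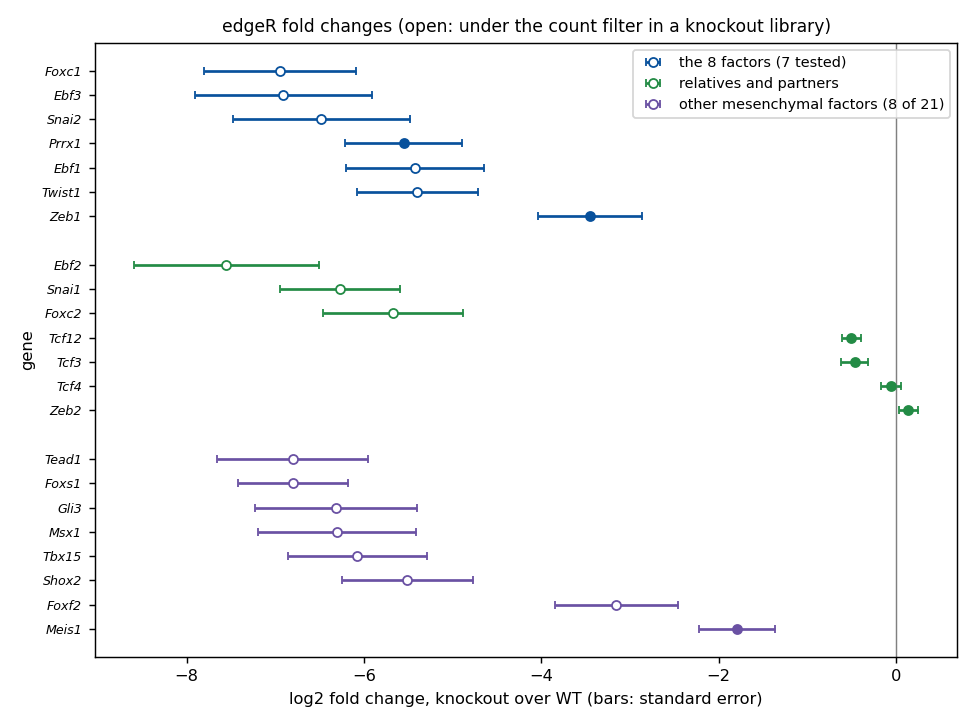
Log2 fold changes of knockout over WT (edgeR) with standard errors for the 7 tested factors, 7 tested relatives and partners, and 8 of the 21 tested other mesenchymal factors; filled points passed the count filter in each of the 6 libraries, open points did not in at least 1 knockout library. Zeb1 at -3.45 lies to the right of the other 6 tested members, and Zeb2, Tcf4, Tcf3 and Tcf12 lie between -0.50 and 0.14.

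FPKM, which divide by exon length, allow the 8 levels to be ordered. Mean FPKM in WT was 6.35 ± 4.74 for Snai2, 5.90 ± 3.52 for Twist1 and 5.04 ± 3.35 for Prrx1 (SD, n = 3). Then followed Foxc1 at 1.95 ± 1.32 FPKM, Zeb1 at 1.65 ± 1.16 FPKM, Ebf1 at 0.927 ± 0.581 FPKM, Ebf3 at 0.753 ± 0.551 FPKM and Twist2 at 0.240 ± 0.147 FPKM. Neighbours in that order did not differ beyond their SD, because the SD holds the large spread between WT libraries. Within a library the order from Twist1 down was the same in 3 of 3 WT libraries. Snai2 led in WT replicates 2 and 3 but stood behind Twist1 and Prrx1 in WT replicate 1, at 1.37 against 2.24 and 1.62 FPKM. In knockout, Zeb1 ranked first of the 8 in replicate 1 at 0.18 FPKM, and Twist1 ranked first in replicates 2 and 3 at 0.20 and 0.15 FPKM.

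The WT libraries differed in all 8 factors in the same way. WT replicate 1 was lowest and WT replicate 3 highest for 8 of 8 genes, with WT replicate 3 at 3.66 to 7.03 times replicate 1. The fibroblast marker sum had the same order with a ratio of 5.31, and the smooth muscle marker sum had a ratio of 6.16. The macrophage marker sum went the other way, at 0.760. That order of WT libraries held for 33.2% of all tested genes for 73.3% of those called lower, and for 92.6% of the 890 genes, 6.75% of those tested, called at least 8-fold lower in knockout. Set against WT replicate 1 alone, the knockout mean was 2.52% to 6.11% for the 7 factors other than Zeb1 and 27.0% for Zeb1.

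**Figure D3:**
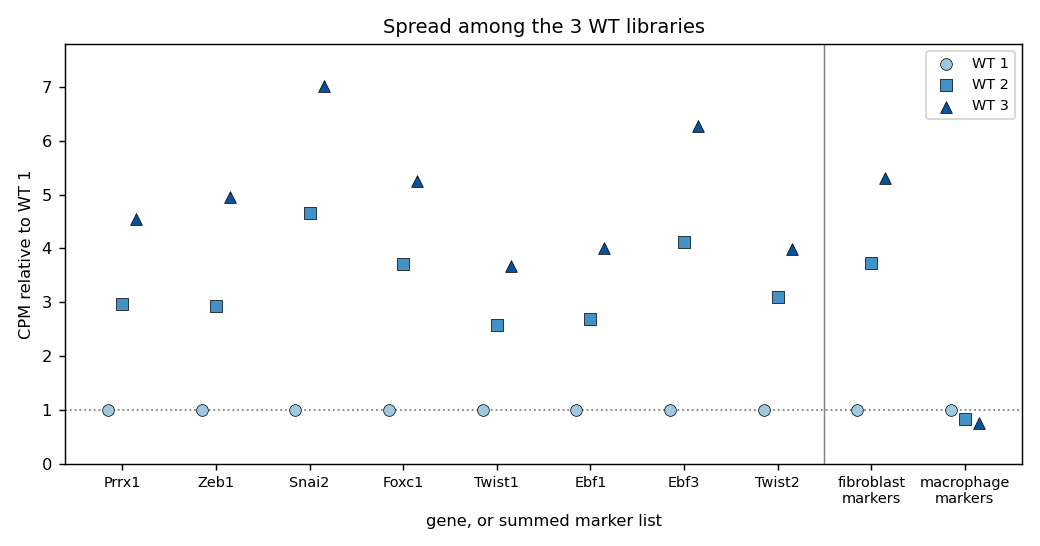
CPM in each of the 3 WT libraries divided by the CPM in WT replicate 1, for the 8 factors and, right of the line, for the summed fibroblast and macrophage markers. WT replicate 3 lies between 3.66 and 7.03 for the factors and at 5.31 for the fibroblast markers, and below 1 for the macrophage markers.

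Relative to the fibroblast marker sum, the factors were nearly level in WT. Per 1000 CPM of fibroblast markers, Foxc1 stood at 1.61, 1.60 and 1.59 CPM in WT replicates 1, 2 and 3. The largest of the 3 WT values was 1.01 times the smallest for Foxc1 and 1.45 times for Twist1, with the other 6 between. Prrx1 stood at 9.21, 7.32 and 7.90 CPM per 1000 in WT and at 14.1, 14.7 and 22.5 in knockout. Zeb1 ranged from 2.10 to 2.68 in WT and stood at 44.8, 14.7 and 18.4 in knockout, a ratio of means of 10.7. For the remaining 6 factors the ratio of means lay between 0.751 and 2.32, and WT and knockout libraries overlapped for each of the 6. The knockout values of these 6 rest on 13 or fewer counts a gene over 3 libraries. This scale was chosen after the values were seen and has no test, and the fibroblast marker sum itself was 0.973% of WT in knockout.

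**Figure D4:**
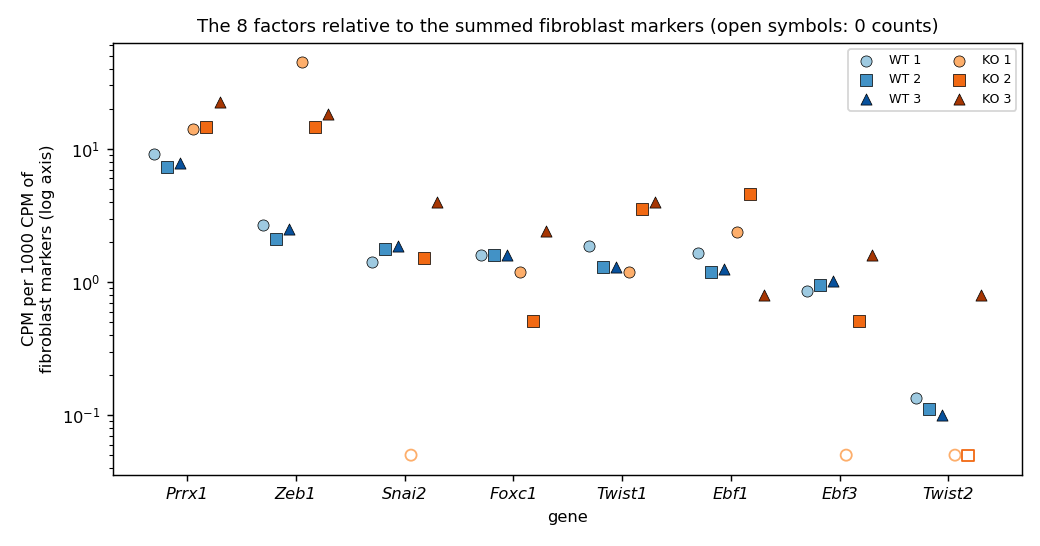
CPM of each factor per 1000 CPM of summed fibroblast markers on a log axis, in 3 WT (blue) and 3 Nrf2 knockout (orange, KO) libraries; open symbols mark 0 counts. WT libraries lie close together for each factor, and Zeb1 in knockout lies at 14.7 to 44.8 against 2.10 to 2.68 in WT.

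Other transcription factors of limb, skeletal and stromal mesenchyme were low in knockout too. Of 40 listed, 21 were tested, of which 21 fell and 0 rose. Of these, 17 had enough counts in every WT library but not in every knockout library, a class in which 83.7% of genes were called lower, so their count says little. The other 4 passed the filter in all libraries, where 14.0% were called lower, among them Meis1 and, named after its values were seen, Runx2. The median log2 fold change of the 21 was -5.56 (-5.51 where a gene at 0 in knockout takes its bound), beside -0.005 for all tested genes. Foxs1, a forkhead gene of pericytes, fell from 13.5 ± 6.80 to 0.116 ± 0.0775 CPM (edgeR adjusted p = 0.0010). Tead1, the DNA-binding partner of YAP, fell from 66.8 ± 48.0 to 0.589 ± 0.361 CPM, and Tbx15, a T-box gene of skeletal mesenchyme, fell from 25.9 ± 17.9 to 0.378 ± 0.156 CPM (edgeR adjusted p = 0.0020 and 0.0022). Shox2 and Gli3, which pattern limbs, had log2 fold changes of -5.51 and -6.32. Msx1, a homeobox gene of limb and skull mesenchyme, had 111 counts over WT and 1 over knockout, a ratio of 117 (95% counting interval 20.5 to 4650). Among the 3 with the highest p were Meis1, a homeodomain gene that blood cells express as well, at a log2 fold change of -1.79, and Foxf2, at -3.16. With genes kept that had any count, 27 of 37 were called lower, beside 2823 of all 22970 genes tested in that setting.

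Most niche genes, several of which stromal EBF and FOXC1 proteins are known to maintain in marrow, fell as well. Of these, 7 of 8 tested fell and 1 was not called, beside 18.7% lower over all tested genes. Of the 8, 3 passed the filter through WT alone (83.7% lower in that class) and 5 in all libraries, of which 4 fell (14.0%). Cxcl12, the chemokine that retains blood stem cells, fell from 73.9 ± 50.1 to 1.18 ± 0.638 CPM (log2 fold change -5.96; edgeR adjusted p = 0.0026). Igfbp5, Pdgfrb, Csf1, Angpt1 and Pdgfra had log2 fold changes from -6.70 to -4.66, of which Pdgfra and Pdgfrb are also in the fibroblast list. Vcam1, an adhesion molecule that macrophages also carry, fell by 1.43. Kitl, the stem cell factor, had 5.83 ± 2.12 CPM (WT) and 5.45 ± 0.493 CPM (knockout) (edgeR adjusted p = 0.82). Lepr, the leptin receptor of marrow reticular cells, had 5, 9 and 27 counts in WT and 2, 1 and 3 in knockout, under the filter.

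Of 12 adhesion and cytoskeleton genes of mesenchymal cells, 9 fell and 3 were not called, beside 18.7% lower over all tested genes. Of the 12, 5 passed the filter through WT alone and fell (83.7% lower in that class), and of the 7 that passed in all libraries 4 fell (14.0%). The cadherins Cdh2 and Cdh11 had log2 fold changes of -6.66 and -6.17 (edgeR adjusted p = 0.0022 and 0.0011). Fap, Nt5e and Itga11, surface proteins of fibroblasts and stromal cells, had log2 fold changes of -4.49, -3.72 and -6.22, and the counts of Thy1 were 256 times higher in WT per total (95% counting interval 70.4 to 2120). The intermediate filament gene Vim had 3721 ± 240.0 CPM (WT) and 4060 ± 113 CPM (knockout) (edgeR adjusted p = 0.43). Eng and S100a4 had edgeR adjusted p-values of 0.71 and 0.42, with log2 fold changes of -0.05 and -0.24. Vim and S100a4 are also expressed by macrophages.

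Epithelial genes, some of which SNAI and ZEB proteins are known to repress, were mostly at low counts in both genotypes. Of 22 listed, 19 were under the count filter, and of 3 tested 0 were called by edgeR at an adjusted p of 0.05. Cdh1, E-cadherin, had 6, 5 and 9 counts in WT and 16, 15 and 11 in knockout. Its knockout libraries all lay above its WT libraries, with a log2 fold change of 1.04 (SE 0.36, edgeR adjusted p = 0.066). Cdh1 passed the count filter through the knockout libraries alone, so its test rests on the group where it was high. Tjp3, a tight junction gene, had 156, 127 and 91 counts in WT and 175, 215 and 188 in knockout. In CPM its knockout libraries also lay above its WT libraries, but the closest, knockout replicate 1 and WT replicate 1, had 8.68 and 8.54 CPM. Every knockout library lay above every WT library for 24.9% of all 13184 genes tested. Tjp3 and St14 had log2 fold changes of 0.57 and 0.10 (edgeR adjusted p = 0.15 and 0.81). Krt19, chosen after its values were seen, had 6, 68 and 191 counts in WT and 0, 4 and 0 in knockout.

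Over the 6 libraries, the genes with profiles nearest to each of the 7 tested factors, Twist2 being left out, were found among 9892 or 9893 other coding genes. Likeness was the root mean square distance between log2 CPM profiles, each centred on its own mean. Nearest to Prrx1 were Ptprg, a receptor tyrosine phosphatase (distance 0.086), and Mxra7 (0.146). Nearest to Twist1 were Slc9a3r2 (0.086) and Foxc2 (0.182), and nearest to Snai2 were Cd248, the stromal antigen endosialin (0.106), and Gli3 (0.165). Foxc1 was nearest to Egfr (0.151) and Lhfp (0.161). Ebf1 was nearest to Ror2 (0.148) and Bok (0.170), and Ebf3 to Map1b (0.147) and Synpo (0.152). Zeb1 was nearest to Samd4 (0.172) and Heg1 (0.182), with log2 fold changes of -3.44 and -3.39. The distances rest on 6 libraries in 2 genotypes, so they mostly follow the size of the drop and the spread in WT.

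Since the 8 genes were low together, the 250 bases upstream of their RefSeq starts (GRCm38.p6) were searched for short motifs on both strands. Windows were found for 6 of the 8 genes, with 2 starts for Ebf1, and 3 are printed: Twist1 and Ebf3, the genes whose windows hold the antioxidant response element letters TGACNNNGC to which NRF2 binds, in capitals, and Prrx1, the most counted factor, whose window holds none. They lie at chr12:33957421-33957670 (plus strand), chr7:137314446-137314695 (minus strand) and chr1:163313651-163313900 (minus strand), and read 5′ to 3′ towards the start.
Twist1: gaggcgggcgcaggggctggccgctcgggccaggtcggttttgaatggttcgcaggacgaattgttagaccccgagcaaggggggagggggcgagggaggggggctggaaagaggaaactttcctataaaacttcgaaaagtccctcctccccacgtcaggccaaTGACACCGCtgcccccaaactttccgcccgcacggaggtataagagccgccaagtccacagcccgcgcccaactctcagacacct
Ebf3: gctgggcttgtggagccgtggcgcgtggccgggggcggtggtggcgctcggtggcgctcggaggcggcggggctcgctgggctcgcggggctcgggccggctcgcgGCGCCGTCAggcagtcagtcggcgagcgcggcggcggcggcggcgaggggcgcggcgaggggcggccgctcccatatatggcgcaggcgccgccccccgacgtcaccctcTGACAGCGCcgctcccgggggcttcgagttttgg
Prrx1: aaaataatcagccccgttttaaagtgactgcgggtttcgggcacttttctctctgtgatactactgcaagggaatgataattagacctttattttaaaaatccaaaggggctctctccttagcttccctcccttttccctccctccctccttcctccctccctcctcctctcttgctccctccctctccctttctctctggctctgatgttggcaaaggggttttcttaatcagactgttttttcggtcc

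The element letters stood in 2 of 7 windows, beside 10.2% of all 32851 windows and 11.8% of those of tested genes. The general E-box CANNTG stood in 1 of 7, in an Ebf1 window, beside 66.2% of all windows and 57.3% of those of tested genes. Its form CAGGTG, to which SNAI and ZEB proteins bind and which is contained in CANNTG, stood in 0 of 7, beside 17.2% of all windows and 14.8% of those of tested genes. The palindromic EBF motif and the forkhead motif TGTTTAC stood in 0 of 7, beside 0.779% and 3.17% of all windows and 0.885% and 2.08% of those of tested genes. The GC box GGGCGG stood in 4 of 7 windows, CCAAT in 3 of 7 and the TATA box TATAAA in 1 of 7, that of Twist1, beside 32.7%, 33.8% and 12.4% of all windows and 57.0%, 35.4% and 6.52% of those of tested genes. The GC box share of 4 in 7 is that of tested genes. The G and C share was 80.0% in the Ebf3 window and 47.6% in the Prrx1 window, with 43 and 4 CG dinucleotides, beside a median of 15 for windows of tested genes. A match is a run of letters and not a shown binding site, and a window without a match says nothing of sites elsewhere.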

How the data were processed

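The authors deposited 1 table with raw read counts and FPKM per gene for 6 libraries. Per the submitters' processing notes HISAT2 2.0.1, HTSeq 0.6.1, DESeq2 and mm10 were used, with no role given, and the sources used here do not say if counts were made by strand. The deposited FPKM equal counts per exonic base and per column total. Members were matched by symbol. The members and gene lists were chosen with earlier results of these data known. Raw counts were tested in R 4.3.3 with edgeR 4.0.16 (filterByExpr with a minimum count of 10, TMM, quasi-likelihood, genotype as the only term), with Benjamini-Hochberg adjustment over 13184 genes and a call at 0.05. Alternatives used limma 3.58.1 and DESeq2 1.42.0. The fits were tested on simulated counts. Fold changes are knockout over WT, with SE as the fold change divided by the root of edgeR's F. Counting intervals are exact, at 95%, and like floors of 3 counts cover counting error only. Named genes were the members, up to 6 tested genes with the smallest p and 3 with the largest p in each list, and the 2 genes of nearest profile, coding and with a mean WT FPKM of at least 1. Results on some genes that this rule names are not reported here. Antisense transcripts overlap Prrx1, Ebf1, Ebf3 and Twist2, with 0 to 3 counts per library where listed in the table, and Gm10125 overlaps Zeb1 with 0 to 14. Replicates differed by more than sampling noise.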

Additional observations from a re-analysis of the deposited data

How the results depend on the processing

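The 7 tested factors kept their direction and their call in all 108 values computed under the alternatives that tested them, with edgeR scaling, filter and library changes, DESeq2 and limma. The size of the drop moved. Leaving out 1 library moved the unlogged fold by more than 1.5 times for Foxc1, Ebf3 and Snai2 (log2 fold changes of -7.62, -7.76 and -7.26 without knockout replicate 3), Ebf1 (-6.74 without knockout replicate 2) and Zeb1 (-2.86 without WT replicate 3). With limma on log2(FPKM + 1), which understates changes of low genes, they ran from -2.51 for Snai2 to -0.75 for Ebf3. In that setting Ebf3 was just under the cut, with a limma adjusted p of 0.0497, and that of Zeb1 was 0.0409. The number of factors called was 3 of 3 tested at a mean FPKM of at least 1, and the number of other mesenchymal factors called lower was 6 of 6, because that filter leaves fewer genes. Leaving out 1 library, all factors tested were called, 7 of 7 or 8 of 8. For the other mesenchymal factors it gave 19 to 26 calls, with 19, 20 and 22 of 26 tested without knockout replicates 1, 2 and 3, 26 of 26 without WT replicate 1, and 19 and 20 of 21 without WT replicates 2 and 3. Of those 21, limma called 16 with FPKM + 1 and 19 with FPKM + 0.1, and scaling to macrophage markers left 20. No filter gave 27 of 37, beside 2823 called lower of all 22970 genes tested in that setting. The count of all called genes ran from 2491 without knockout replicate 1 to 6901 without WT replicate 1. It was 2748 and 2574 without knockout replicates 2 and 3, and 2687 without WT replicate 2. The difference in the ratio of Ebf1 to Ebf3 was -0.191 with FPKM + 0.1 and ran from -0.229 to 0.908 when 1 library was left out. For Snai2 over Snai1 it was -0.473 with a prior count of 0.5 and ran from -0.400 to 0.614. The cause was not tested. Deviations of same-numbered libraries correlated at 0.203, 0.136 and 0.078, so the numbers were not taken as pairs, and WT replicate 3 correlated more with knockout replicate 2 (0.085). With the replicate number as a block 7 factors, 21 other factors and 4174 genes were called, and the block changed none of these calls on the factors. Depth limits the knockout values, since 3 counts correspond to 0.131 to 0.164 CPM.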

Other observations

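Of the 16 nearest protein-coding genes on either side of the 8 factors, chosen after the data were seen, 12 were tested, of which 2 were called lower, 2 higher and 8 not called, beside 18.7% lower and 14.1% higher over all tested genes. Hdac9, a histone deacetylase gene that lies 87.8 kb from Twist1, rose by 0.89 on the log2 scale (SE 0.20; edgeR adjusted p = 0.015), from 5.46 ± 1.06 to 10.1 ± 1.47 CPM. Hdac4, 80.8 kb from Twist2, fell by 0.60 (SE 0.12; edgeR adjusted p = 0.0086), from 31.4 ± 2.45 to 20.7 ± 2.41 CPM. Foxf2, 175 kb from Foxc1, fell by 3.16 (edgeR adjusted p = 0.014), while Gmds, 7.10 kb on the other side of Foxc1, had 13.7 ± 1.93 CPM (WT) and 13.8 ± 0.248 CPM (knockout; edgeR adjusted p = 0.97). Arhgap12, 249 kb from Zeb1, rose by 0.35 (edgeR adjusted p = 0.034).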
